A study of Mus musculus with 2 samples.

Results

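The H2- genes of mouse chromosome 17 are the mouse major histocompatibility complex, and their chromatin contacts were examined here in liver. They were taken as every gene that the RefSeq table of GRCm38.p6 (the mm10 assembly) lists for chromosome 17 with a symbol starting H2-. This gave 50 of the 49997 genes of the table. Of these, 46 have a position on the chromosome itself, and they overlap 31 of the 54521 bins of 50 kb. The other 4, H2-Q8, H2-Q9, H2-D4 and H2-T18, have no position on the assembled chromosome in that table and were not analysed here. The 46 placed genes comprise 33 of class I, 12 of class II and 1 of neither class, H2-Ke6, a hydroxysteroid dehydrogenase gene. They comprise 35 protein-coding genes and 11 pseudogenes. In the order of the chromosome they form a K block of class I (2 bins), the class II block (6 bins), a D and Q block of class I (5 bins), a T block (4 bins) and an M block (14 bins), all inside 3550 kb. Between the class II block and the D and Q block lies the class III interval, 18 bins with 62 protein-coding genes and no H2- gene, and a further 10 bins without one separate the D and Q block from the T block. A bin often holds several members: 14 of the 31 bins hold at least 2 of them, so genes of a bin share their values.

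The measurements were Foxa2 HiChIP contacts, which pair proximity ligation of chromatin with precipitation by an antiserum against Foxa2, a forkhead factor of liver. Wildtype mice received GW4064, which activates the bile acid receptor FXR, by gavage, and control wildtype mice received vehicle. Livers were taken 4 h later, and there was 1 library for GW4064 and 1 for vehicle. The age and sex of the mice, and whether animals were pooled, are not stated. With 1 library per group there was no replicate and no test. Every difference compares those libraries and not the treatments, and intervals are 95% intervals that cover only counting error. In all, the GW4064 library held 29003442 contacts and the vehicle library 22686004. The median bin of chromosome 17 held 963 contacts in the GW4064 library and 757 in the vehicle library. Contacts do not measure RNA, and enrichment of a bin by the antiserum cannot be told apart from its contacts. Liver is a mixture of cells, so fewer cells of a type and fewer contacts per cell cannot be told apart either.

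Class I molecules pair a polymorphic heavy chain with beta-2 microglobulin and show peptides from the cytosol to CD8 T cells on most nucleated cells. Class II molecules are pairs of alpha and beta chains that show peptides from endosomes to CD4 T cells, mainly on dendritic cells, B cells and macrophages, which in liver include Kupffer cells. H2-DM exchanges peptides on class II molecules and H2-O restrains H2-DM. The genes arose by repeated duplication, so their sequences resemble each other and a read from a copy may have no unique place on the genome.

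The promoters below show how unequal that resemblance is among the blocks. RefSeq promoter entries (GRCm38.p6, 250 bases before to 50 after the start) were found for 32 of the 46 placed genes, and the bases before the start are printed. The first 4 are class I genes of the K and the D and Q blocks. They lie at chr17:34000348-34000597 on the minus strand (H2-K1) and, on the plus strand, at chr17:35262844-35263093 (H2-D1), chr17:35424600-35424849 (H2-Q6) and chr17:35438905-35439154 (H2-Q7). The next pair, from the M block, lies at chr17:36368418-36368667 on the minus strand (H2-M10.3) and chr17:36772660-36772909 on the plus strand (H2-M10.5). Capitals in these 6 mark bases inside a word of 31 bases that also occurs, on either strand, in the promoter entry of another gene.
H2-K1: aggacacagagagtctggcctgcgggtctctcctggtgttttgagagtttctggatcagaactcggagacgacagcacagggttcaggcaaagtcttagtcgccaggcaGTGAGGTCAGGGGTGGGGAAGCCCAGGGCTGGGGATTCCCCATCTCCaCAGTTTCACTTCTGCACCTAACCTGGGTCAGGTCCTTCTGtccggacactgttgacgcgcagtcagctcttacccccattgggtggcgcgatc
H2-D1: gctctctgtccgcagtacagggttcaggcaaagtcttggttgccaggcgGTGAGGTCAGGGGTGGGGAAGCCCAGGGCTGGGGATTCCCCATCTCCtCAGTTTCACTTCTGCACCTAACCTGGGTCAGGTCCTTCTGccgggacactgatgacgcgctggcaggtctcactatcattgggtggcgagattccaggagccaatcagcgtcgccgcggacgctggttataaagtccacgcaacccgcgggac
H2-Q6: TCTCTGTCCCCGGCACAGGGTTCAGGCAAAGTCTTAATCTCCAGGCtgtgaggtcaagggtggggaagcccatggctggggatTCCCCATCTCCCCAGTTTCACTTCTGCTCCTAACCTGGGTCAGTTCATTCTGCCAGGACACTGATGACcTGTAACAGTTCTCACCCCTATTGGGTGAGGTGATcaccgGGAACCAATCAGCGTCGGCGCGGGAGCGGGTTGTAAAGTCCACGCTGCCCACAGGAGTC
H2-Q7: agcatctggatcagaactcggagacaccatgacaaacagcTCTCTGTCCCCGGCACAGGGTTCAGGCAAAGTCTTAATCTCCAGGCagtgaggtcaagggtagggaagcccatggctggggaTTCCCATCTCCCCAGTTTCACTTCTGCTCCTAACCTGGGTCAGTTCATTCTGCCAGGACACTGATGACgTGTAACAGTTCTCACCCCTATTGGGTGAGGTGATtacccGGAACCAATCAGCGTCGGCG
H2-M10.3: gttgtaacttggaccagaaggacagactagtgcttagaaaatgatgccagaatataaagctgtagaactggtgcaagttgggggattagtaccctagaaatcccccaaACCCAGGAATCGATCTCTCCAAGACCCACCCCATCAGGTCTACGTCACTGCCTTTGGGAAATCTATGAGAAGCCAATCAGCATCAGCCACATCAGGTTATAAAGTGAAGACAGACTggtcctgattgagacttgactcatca
H2-M10.5: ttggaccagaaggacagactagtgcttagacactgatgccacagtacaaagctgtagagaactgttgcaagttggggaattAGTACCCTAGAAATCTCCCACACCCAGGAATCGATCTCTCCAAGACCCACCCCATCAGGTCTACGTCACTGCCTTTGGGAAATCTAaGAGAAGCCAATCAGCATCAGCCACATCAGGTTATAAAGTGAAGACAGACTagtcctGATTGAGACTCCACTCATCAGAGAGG

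Class II promoters held no such word. They are shown by H2-Aa, at chr17:34287824-34288073 on the minus strand, and H2-Eb1, at chr17:34305617-34305866 on the plus strand. Capitals in this pair mark CCAAT on either strand, the letters bound by the factor NF-Y that acts at class II promoters.
H2-Aa: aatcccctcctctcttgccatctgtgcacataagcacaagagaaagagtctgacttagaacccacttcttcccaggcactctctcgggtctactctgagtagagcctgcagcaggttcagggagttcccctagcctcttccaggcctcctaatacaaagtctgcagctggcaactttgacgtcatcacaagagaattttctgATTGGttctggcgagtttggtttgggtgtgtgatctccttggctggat
H2-Eb1: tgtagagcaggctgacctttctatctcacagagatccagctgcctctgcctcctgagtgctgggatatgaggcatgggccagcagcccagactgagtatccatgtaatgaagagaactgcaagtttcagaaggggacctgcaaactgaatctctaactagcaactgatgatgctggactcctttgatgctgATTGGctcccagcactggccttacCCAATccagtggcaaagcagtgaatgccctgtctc

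A shared 31-base word was present in 0 of 8 class II promoters, 1 of 1 in the K block, 6 of 6 in the D and Q block, 2 of 4 in the T block and 7 of 12 in the M block. H2-K1 and H2-D1 shared 27 of their 270 words although their genes lie in different blocks. H2-Q6 and H2-Q7 shared 93. The highest share belonged to H2-M10.5, with 36.7% of its words, and its nearest relative H2-M10.3 matched it at 90% of bases by edit distance. The letters GGGGATTCC, of the kind bound by NF-kappaB at class I promoters, were found on either strand of 4 of the 32 entries, namely those of H2-K1, H2-D1, H2-Q6 and H2-Q7, against 0.259% of all 27025 entries. TTTCACTT, of the kind bound by interferon regulatory factors, was found in 9 of 32, of which 6 belong to the K and the D and Q blocks, against 1.67% of all entries. CCAAT was found in 28 of 32, against 37.9%. TGTTTAC, a forkhead core, was found in 2 of 32, those of H2-M9 and H2-M1, against 3.55%. These are matches of letters in 300 bases and do not show a bound site. The letters were chosen after the promoters had been read, so the counts are a description. In H2-K1 and H2-D1, GGGGATTCC lies inside their shared words, so promoters of related genes are not separate finds.

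Bins of the K, class II and D and Q blocks held few contacts, more so in the GW4064 library, and bins of the M block did not. A bin was called thinly covered where its total contacts were under 0.5 of the chromosome 17 median. In the GW4064 library this held for 9 of the 31 member bins, against 6.70% of the 1837 usable bins of the chromosome, and in the vehicle library for 1 of 31, against 1.96%. The 9 bins were 2 of 2 in the K block, 4 of 6 in the class II block and 3 of 5 in the D and Q block, with 0 of 4 in the T block and 0 of 14 in the M block. The bin of H2-Q10, a class I gene whose liver product is secreted, had the lowest total of the 31 bins in both libraries, with 371 contacts in the GW4064 library and 350 in the vehicle library. The bin of H2-M2 had the highest GW4064 total, 1277 contacts, against 932 in the vehicle library.

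**Figure D1:**
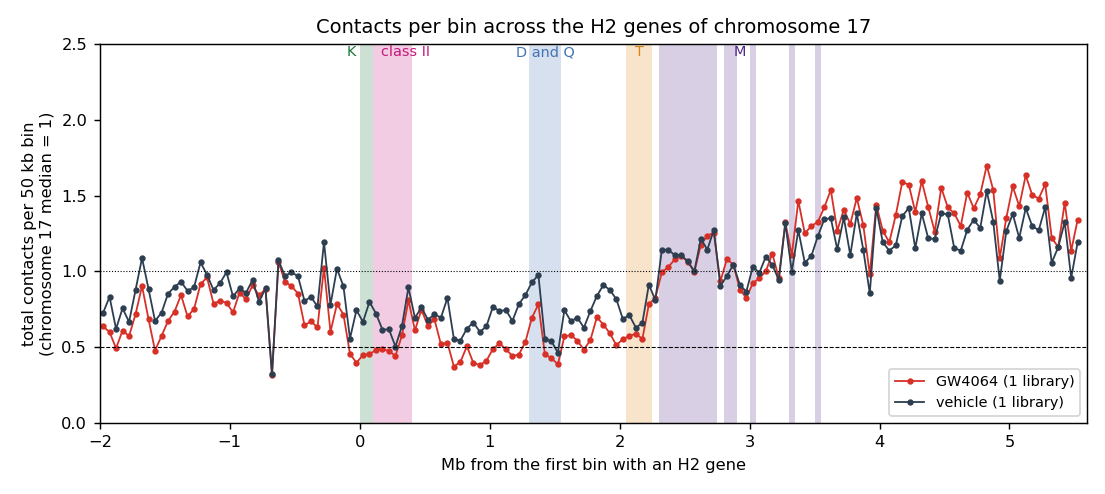
Total contacts per 50 kb bin (vertical, with the chromosome 17 median of the same library set to 1) against distance in Mb from the first bin with an H2 gene, for the GW4064 and the vehicle library. Shaded bins hold H2 genes of the named block, and the dashed line marks 0.5. The red GW4064 line runs below 0.5 in 9 shaded bins of the K, class II and D and Q blocks, while M block bins range from 0.921 to 1.33 in GW4064 and from 0.968 to 1.27 in vehicle.

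Thin coverage and shared promoter sequence did not run in parallel over the blocks. The class II block had 4 thinly covered bins in the GW4064 library and 0 promoters with a shared word. The M block had 7 of 12 promoters with a shared word and 0 thinly covered bins in either library. Within the D and Q block, the bins of H2-Q3 to H2-Q10, where the genes lie closest together, had 371 to 435 contacts in the GW4064 library and 350 to 417 in the vehicle library. The bins of H2-D1 and of H2-Q1 with H2-Q2 had 668 and 752 contacts in the GW4064 library and 702 and 738 in the vehicle library. The class III interval, which holds no H2 gene, had 9 of 18 thinly covered bins in the GW4064 library and 0 of 18 in the vehicle library. Promoters cover a small part of each bin, and the part of repeated sequence in any count was not tested.

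Local contacts, those that join a bin to others within 1 Mb on the same chromosome, were lower in the GW4064 library at the K, class II and D and Q blocks. Each ratio was scaled to equal totals of local contacts. A bin whose local contacts summed to at least 200 was called lower where the scaled ratio was at most 0.8 with an interval excluding 1, and higher by the inverse of that ratio. By this rule 9 of 31 member bins were lower, against 12.0% of all 49090 such bins, and 0 were higher, against 5.45%. The median log2 ratio of GW4064 to vehicle was -0.14 over the member bins and 0.02 over all tested bins. The lower bins were 2 of 2 in the K block, 3 of 6 in the class II block and 4 of 5 in the D and Q block. Gene-dense bins were called lower more often than all bins. In bins within the gene density range of each block, counted as below, the share lower was 50.5% for K, 52.9% for class II and 63.1% for D and Q. It was 50.3% for T and 48.6% for M. At a threshold of 1.5-fold, 2 of the 31 bins were lower, against 3.19%, and 0 higher, against 0.226%. With an interval excluding 1 at any fold, 10 were lower, against 14.3%, and 0 higher, against 10.2%. None of the 4 bins of the T block and none of the 14 of the M block was called. The class III interval, between the class II and the D and Q blocks, had 13 of 18 bins lower. Of bins within its gene density range, 64.1% were lower. The low ratios were thus not limited to bins with H2 genes.

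**Figure D2:**
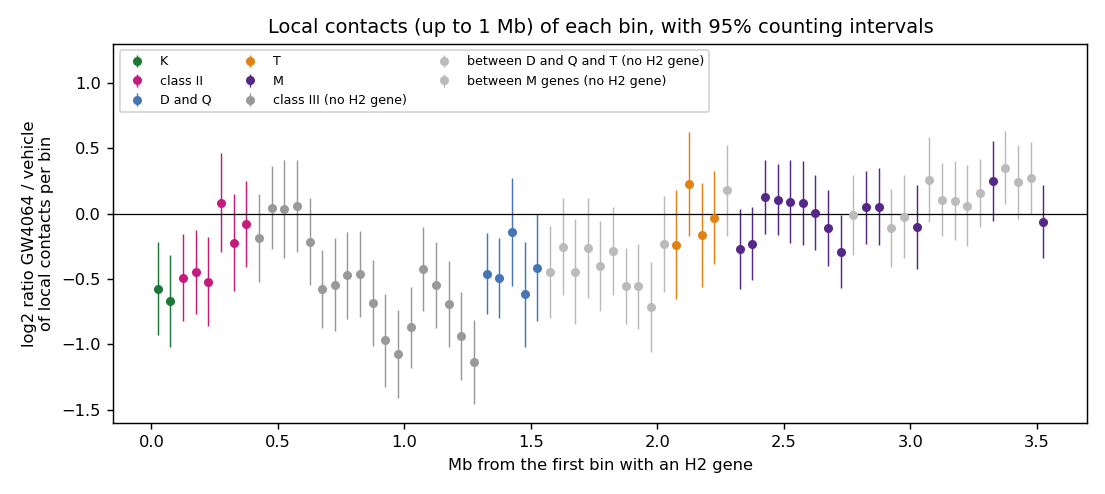
Log2 ratio of GW4064 to vehicle of local contacts for each 50 kb bin (vertical) against distance in Mb from the first bin with an H2 gene. Points are single bins colored by block, bars are 95% counting intervals, and gray points are bins with no H2 gene. K block bins lie at -0.57 and -0.67, class III bins reach -1.13, and M block bins range from -0.29 to 0.25.

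After scaling, class I genes of the K and the D and Q blocks had fewer local contacts in the library from GW4064-treated mice. The K block held 238 local contacts in the GW4064 library and 255 in the vehicle library, a log2 ratio of -0.61 (interval -0.87 to -0.35). H2-K1, a classical class I heavy chain gene (33996012 to 34000619), lies across both bins of the K block and so has that value. The first bin alone, with the pseudogene H2-K2, had -0.57, and the second, with H2-Ke6, had -0.67. H2-D1, the other classical heavy chain gene examined (35263094 to 35267497), held 178 contacts in the GW4064 library and 172 in the vehicle library, a log2 ratio of -0.46 (-0.77 to -0.15). The D and Q block as a whole held 546 contacts in the GW4064 library and 525 in the vehicle library, with a log2 ratio of -0.45 (-0.63 to -0.28). Its lowest bin was that of H2-Q6 and H2-Q7, which encode the nonclassical Qa-2 type of class I chain, at -0.62 (-1.02 to -0.22). Its highest was that of H2-Q3, H2-Q4 and H2-Q5 at -0.14 (-0.55 to 0.27), with 116 contacts in the GW4064 library and 90 in the vehicle library. H2-Q10 had -0.41 with an interval that nearly reaches 0 (-0.82 to -0.00). The ratios are relative to the local contacts of the whole library, which summed to 6808739 in the GW4064 library and 4783866 in the vehicle library.

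The class II genes were split, with low ratios at its H2-O alpha and H2-DM genes and smaller ones at the classical genes. The block held 704 local contacts in the GW4064 library and 612 in the vehicle library, a log2 ratio of -0.31 (-0.47 to -0.15). H2-Oa, which encodes the alpha chain of H2-O (34092379 to 34095234), shares its bin with the pseudogenes H2-Pa and H2-Pb. That bin held 153 contacts in the GW4064 library and 151 in the vehicle library, a log2 ratio of -0.49 (-0.82 to -0.16). The bin of H2-DMa had 164 contacts in the GW4064 library and 157 in the vehicle library, with a log2 ratio of -0.45 (-0.77 to -0.12). H2-DMb2, across that bin and the next, had -0.46, and H2-DMb1 had -0.52 (-0.86 to -0.18). The remaining 3 bins were not called. H2-Ob, the beta chain of H2-O, had the highest ratio of the block at 0.09 (-0.29 to 0.47), with 148 contacts in the GW4064 library and 98 in the vehicle library. H2-Ab1 and H2-Aa, the beta and alpha chains of the classical I-A molecule (34263227 to 34269418 and 34282744 to 34287823), share a bin with 138 contacts in the GW4064 library and 113 in the vehicle library, and a log2 ratio of -0.22 (-0.59 to 0.15). H2-Eb1, the beta chain of I-E (34305867 to 34316674), shares a bin with H2-Eb2 and H2-Ea, which had 182 contacts in the GW4064 library and 135 in the vehicle library, and a log2 ratio of -0.08 (-0.41 to 0.25). The difference between these bins and the H2-DM bins was not tested, and their intervals overlap.

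The T and M blocks of nonclassical class I genes had ratios near 0. The T block held 422 local contacts in the GW4064 library and 308 in the vehicle library, a log2 ratio of -0.05 (-0.27 to 0.16), and the M block 2308 and 1669 contacts in the same order, a log2 ratio of -0.04 (-0.13 to 0.05). Scaling to all contacts of the libraries would add 0.15 to every log2 ratio of local contacts, which makes the M block 0.11 (0.02 to 0.20) and turns the T block positive, while the K block stays below 0 at -0.45 (-0.71 to -0.19) and the D and Q block at -0.30 (-0.47 to -0.12). For the class II block the value is then -0.15 with an interval that includes 0 (-0.31 to 0.01), and by the main scaling but without its thinly covered bins it has -0.15 (-0.41 to 0.11). In the T block the bin of the pseudogene H2-Bl was highest at 0.22 (-0.17 to 0.63). The bin of H2-T24, H2-T23 and H2-T22 was lowest at -0.24 (-0.65 to 0.18), where H2-T23 encodes Qa-1, a ligand of receptors on natural killer cells. In the M block the highest bin was that of H2-M3, which presents peptides with formylated ends (37270234 to 37274485), with 242 contacts in the GW4064 library and 143 in the vehicle library, and a log2 ratio of 0.25 (-0.05 to 0.56). The lowest was H2-M1 at -0.29 (-0.57 to -0.01), whose interval excludes 0 but whose fold was under the threshold.

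The T and M blocks had higher median ratios than other bins of their gene density. Density was counted as protein-coding gene starts in the 21 bins around a bin. Bins of all chromosomes within the density range of the M block, 32 to 49 genes, had a median log2 ratio of -0.32, against 0.03 for the M block bins. The upper quartile of those bins of like density was -0.02, below the M block median. For the T block the medians were -0.10 in the block and -0.34 in bins of like density. The quartiles of the latter were -0.54 and -0.03, so the T block median lay between them. The class II block had -0.33 in the block and -0.36 in like bins, and the D and Q block -0.46 and -0.47 in the same order. The K block, with 2 bins, had -0.62, against -0.34 in like bins. The M span holds 17 olfactory receptor genes among its 45 protein-coding genes. Bins with olfactory receptor genes elsewhere in the genome had a median of 0.11 (567 bins). This relation was examined after the data were seen, and the part of gene density in the ratios was not tested.

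The K block was lower in every class of contact, and the classes differed in size at the class II and D and Q blocks when each was scaled to its own total. The K block held 168 contacts over 1 Mb away on its chromosome in the GW4064 library and 269 in the vehicle library, a log2 ratio of -1.01 (-1.30 to -0.73), its lowest class. Contacts inside single bins of the class II block had a log2 ratio of -0.10 (-0.28 to 0.08), against -0.40 (-0.56 to -0.23) for its contacts over 1 Mb. The D and Q block had -0.42 (-0.62 to -0.22) inside single bins and -0.07 (-0.20 to 0.06) for contacts with other chromosomes. Scaled to all contacts, the D and Q block had -0.31 (-0.51 to -0.10) inside single bins and -0.35 (-0.48 to -0.22) with other chromosomes. For the M block the last class had 0.10 (0.04 to 0.17), which became -0.18 when scaled to all contacts, because such contacts made up a smaller share of the whole GW4064 library. Contacts between chromosomes made up 33.6%, 33.7% and 38.6% of the contacts of the K, class II and D and Q blocks in the GW4064 library. They made up 18.3% of all contacts of that library, each counted once. In the vehicle library the shares were 35.4%, 38.7% and 38.7%, against 22.3% of all contacts of that library, each counted once. For the M block the share was 28.8% in the GW4064 library and 32.1% in the vehicle library. A block share counts contacts with at least 1 end in the block. A contact between chromosomes can enter by either end, which by itself raises block shares above the library share. The measures are thus unlike, and the size of the excess was not tested.

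**Figure D3:**
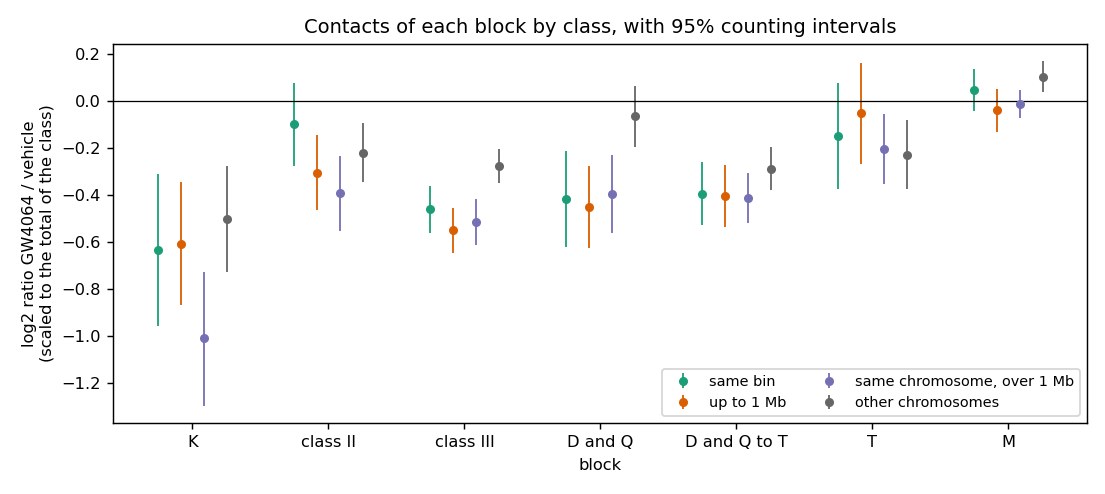
Log2 ratio of GW4064 to vehicle (vertical) of contacts in 4 classes for each block, with 95% counting intervals. Each class is scaled to its own total. The K block is lowest at -1.01 for contacts over 1 Mb on the same chromosome, and the M block lies between -0.04 and 0.10 in all 4 classes.

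The K to D and Q side, that is the K, class II and D and Q blocks, had few contacts for the distance with the T and M blocks in both libraries. Contacts between bins were divided by the number expected from the mean of all bin pairs of chromosome 17 at the same distance in the same library. Member bins of the K, class II and D and Q blocks had 53 contacts with those of the T and M blocks in the GW4064 library and 37 in the vehicle library. That is 0.25 (0.188 to 0.327) of the expected number in the GW4064 library and 0.235 (0.165 to 0.324) in the vehicle library. When the expectation also took the total contacts of both bins into account, the values were 0.504 (0.378 to 0.660) in the GW4064 library and 0.347 (0.245 to 0.479) in the vehicle library, still below 1. With the 18 class III bins added to the K to D and Q side, the values by distance were 0.226 in the GW4064 library and 0.218 in the vehicle library. The class II block had 20 contacts with the T and M blocks in the GW4064 library and 14 in the vehicle library, 0.320 and 0.295 of expected. The D and Q block and the T block, both of class I and at most 900 kb apart, had 16 contacts in the GW4064 library and 9 in the vehicle library, 0.350 (0.200 to 0.568) and 0.274 (0.125 to 0.519) of expected. With total contacts in the expectation that pair had 1.10 (0.626 to 1.78) in the GW4064 library and 0.564 (0.258 to 1.07) in the vehicle library. Both intervals include 1, so a low value of this pair was shown in either library by distance alone. The T and M blocks had 0.403 of the expected contacts with each other in the GW4064 library and 0.466 in the vehicle library, and 0.612 and 0.564 with total contacts in the expectation.

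**Figure D4:**
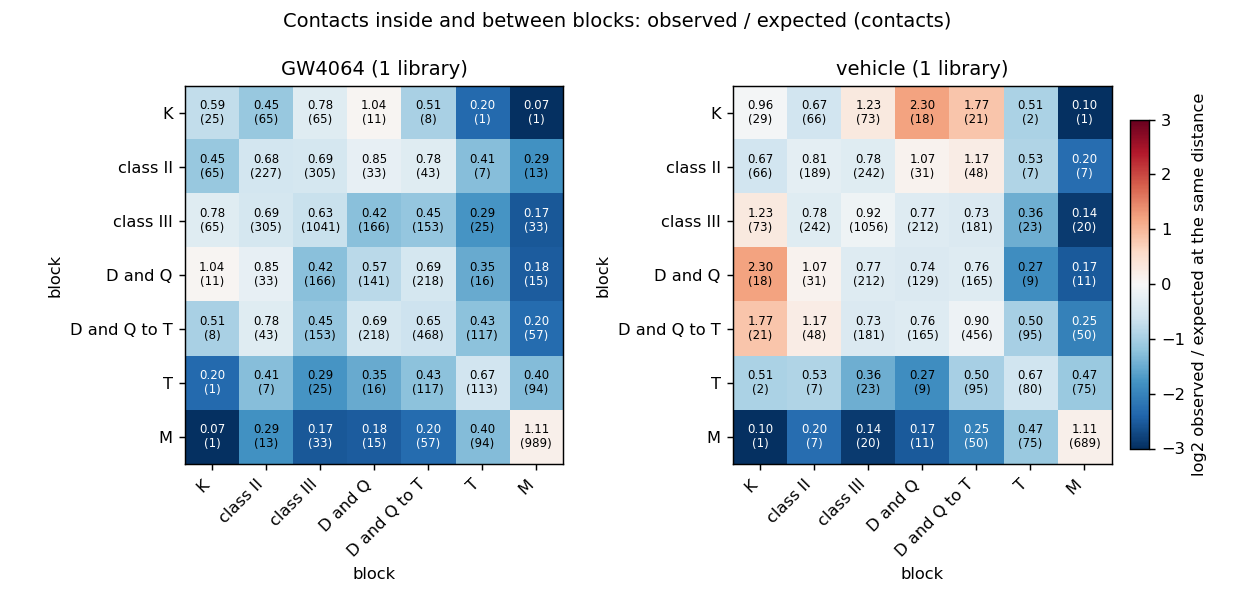
Observed over expected contacts inside blocks (diagonal) and between blocks, for the GW4064 library at left and the vehicle library at right. Each cell gives the ratio, with the number of contacts in parentheses, and colors show its log2. Cells that join the K to D and Q side with the M block are among the darkest blue in both libraries, at 0.07 to 0.29 in GW4064 and 0.10 to 0.20 in vehicle, and the M block alone is above 1 on the diagonal.

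The class II block had fewer contacts with the K and the D and Q blocks together than distance alone gives, and relatively fewer in the GW4064 library, both of which turned when total contacts entered the expectation. Together these came to 98 contacts in the GW4064 library and 97 in the vehicle library, 0.537 (0.436 to 0.654) and 0.758 (0.615 to 0.925) of expected. The log2 ratio of GW4064 to vehicle was -0.50 (-0.92 to -0.08), but 0.56 (0.14 to 0.98) when total contacts entered the expectation, so the direction depends on whether the total contacts of these bins are divided out. The neighbouring K and class II blocks had 65 contacts in the GW4064 library and 66 in the vehicle library, 0.453 (0.349 to 0.577) and 0.666 (0.515 to 0.848) of expected. The class II and the D and Q blocks, which lie 950 to 1400 kb apart on either side of class III, had 33 contacts in the GW4064 library and 31 in the vehicle library, 0.849 (0.584 to 1.19) and 1.07 (0.729 to 1.52) of expected. The K and the D and Q blocks, the pair that holds H2-K1 and H2-D1, had 11 contacts over 1250 to 1500 kb in the GW4064 library and 18 in the vehicle library. These were 1.04 (0.518 to 1.86) of expected in the GW4064 library and 2.30 (1.36 to 3.63) in the vehicle library, and 4.19 and 4.40 with total contacts in the expectation. The log2 ratio of that pair was -1.15 (-2.37 to 0.01), so no difference between the libraries was detectable at this depth. H2-K1 and H2-D1 also share promoter words, and the part of misplaced reads in their contacts was not tested.

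Inside the blocks, the M block passed the expected number by distance alone and the class II, D and Q and T blocks fell short of it, an order that turned when total contacts entered the expectation. The class II block had 227 contacts between its bins in the GW4064 library and 189 in the vehicle library, 0.684 and 0.810 of expected. The D and Q block had 0.571 in the GW4064 library and 0.739 in the vehicle library, the T block 0.667 and 0.666 in the same order, and the M block 1.11 in both. With total contacts, the class II block was at 2.53 in the GW4064 library and 1.96 in the vehicle library, the D and Q block at 1.98 and 1.55, the T block at 1.87 and 1.33, and the M block at 0.965 and 0.906. The log2 ratio of GW4064 to vehicle inside the D and Q block was -0.37 (-0.73 to -0.02) by distance and 0.35 (-0.00 to 0.71) with total contacts. That of the M block was 0.00 (-0.14 to 0.15) by distance. The choice of bins also mattered by distance alone. Every bin from the first to the last M gene gave 1.03 (0.99 to 1.07) in the GW4064 library and 0.987 in the vehicle library. Without thinly covered bins the D and Q block had 0.761 (0.521 to 1.07) in the GW4064 library and 1.32 (0.943 to 1.80) in the vehicle library.

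The M10 genes, nonclassical class I genes known for expression with receptors of the vomeronasal organ, lie in a pair of groups that had more contacts with each other than expected for their distance in both libraries. The group was picked with its values in view, so they are a description. The first group, H2-M10.1, H2-M10.2, H2-M10.3, H2-M10.4 and the pseudogene H2-M10.5-ps1, lies 300 to 550 kb from H2-M10.5 and H2-M10.6. The bins of the groups had 94 contacts with each other in the GW4064 library and 70 in the vehicle library. That is 2.25 (1.82 to 2.75) of expected in the GW4064 library and 2.42 (1.89 to 3.06) in the vehicle library, and 2.08 and 2.18 with total contacts in the expectation. The log2 ratio between the libraries was -0.10 (-0.57 to 0.36). H2-M11, H2-M9 and H2-M1, which lie between the groups, had 0.882 of expected with the second group, H2-M10.5 and H2-M10.6, in the GW4064 library and 0.615 in the vehicle library. With the first group they had 236 contacts in the GW4064 library, 1.18 (1.03 to 1.34) of expected, and 172 in the vehicle library, where the interval ran from 1.07 to 1.45. With total contacts in the expectation these were 1.03 in the GW4064 library and 1.02 in the vehicle library. Single pairs in that set were higher, with H2-M1 and H2-M10.5-ps1 at 1.60 in the GW4064 library and 3.84 in the vehicle library. The bins of H2-M10.1 and H2-M10.5, 450 kb apart, had 18 contacts in the GW4064 library and 12 in the vehicle library, 4.68 and 4.55 of expected. The promoter entries of H2-M10.3 and H2-M10.5 are alike at 90% of bases, as given above, and those bins had 15 and 13 contacts in the same order. The bin just before that of H2-M10.5, which holds no H2 gene, had 21 contacts with the H2-M10.3 bin in the GW4064 library and 12 in the vehicle library, 4.25 and 3.48 of expected. The part of misplaced reads in these contacts was not tested.

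Single pairs of bins were sparse. Between the first and last member bin, 70 pairs that lie 100 kb to 2 Mb apart had at least 20 contacts over both libraries, and 26 of them join member bins. Of the 70, 13 were at least 2-fold lower in the GW4064 library, against 4.36% of all such pairs of the genome, and 5 were higher, against 7.17%. Of the 26, 4 were lower and 2 higher. No pair that joins different blocks reached 20 contacts. The lowest ratio was that of H2-D1 with H2-Q6 and H2-Q7, 150 kb apart, with 5 contacts in the GW4064 library and 15 in the vehicle library, a log2 ratio of -2.15 (-3.96 to -0.61). The bin of H2-T24, H2-T23 and H2-T22 with that of H2-T-ps and H2-T10 had 7 and 13 contacts in the same order, with -1.45 (-3.01 to -0.02). The highest ratios of member pairs were those of H2-M10.3 with H2-M1, at 1.04 (-0.49 to 2.85), and of H2-DMa with H2-Ob, at 1.03 (-0.17 to 2.39) from 24 contacts in the GW4064 library and 8 in the vehicle library. The other 2 member pairs that were at least 2-fold lower join H2-M1 with H2-M10.5-ps1, at -1.26, and with H2-M10.1, at -1.12. Of the 5 highest and 5 lowest pairs of the region, the 6 not named so far had a class III bin, or a bin of the M span without an H2 gene, on at least 1 side, and ranged from -1.71 to 1.62.

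The compartment value stepped down from the T block to the M block, whereas the lowest insulation of the region lay before the T block. The compartment value, the first eigenvector of contact correlations at 250 kb, is positive where bins group with gene-rich chromatin. It had a median of 0.57 in the GW4064 library and 0.63 in the vehicle library for the K block, 0.56 and 0.63 for the class II block, and 0.61 and 0.64 for the D and Q block. The T block had 0.43 in both libraries. The M block ran from 0.04 to -0.72 in the GW4064 library and from 0.03 to -0.64 in the vehicle library, with 5 of 14 bins positive in the GW4064 library and 8 of 14 in the vehicle library. The lowest bins were those of H2-M3 and H2-M2, at the end away from the T block. Over chromosome 17 the eigenvectors of the libraries had a Pearson r of 0.994 across 366 bins, which share the same genome and are not replicates.

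**Figure D5:**
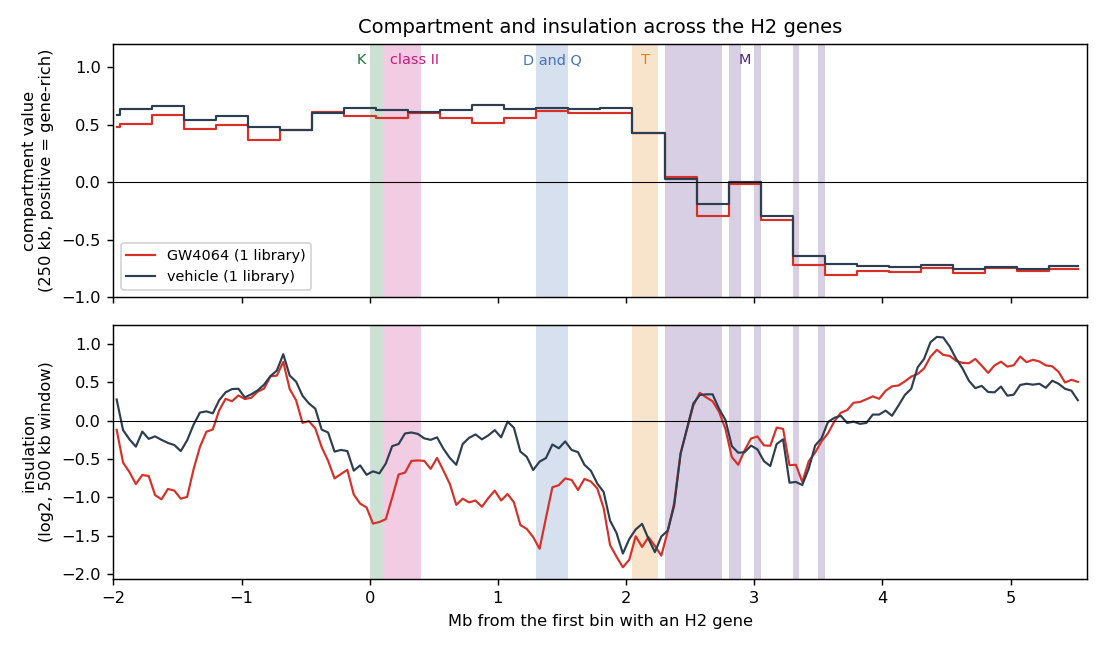
Compartment value (upper panel) and log2 insulation in a 500 kb window (lower panel) against distance in Mb from the first bin with an H2 gene, for the GW4064 and the vehicle library. Shaded bins hold H2 genes. Both lines of the upper panel step down from the T block to the M block, and both lines of the lower panel reach their lowest value within the H2 genes at 1950 kb, just before the T block.

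Insulation, the log2 of contacts across a bin over the chromosome mean, was lowest within the region at the same bin in both libraries. That bin, at 1950 kb from the first member bin (35900001 to 35950000), lies between the D and Q block and the T block. It had -1.91 in the GW4064 library and -1.73 in the vehicle library, at percentile 0.789 and 0.684 of 1824 bins of the chromosome. A 250 kb window gave the same bin in both libraries. The T block averaged -1.58 in the GW4064 library and -1.51 in the vehicle library, and the M block -0.28 in both. The K block averaged -1.33 in the GW4064 library and -0.68 in the vehicle library, and the D and Q block -1.08 and -0.39 in the same order. Insulation counts raw contacts. Total contacts per bin of the K block had a median of 0.451 of the chromosome median in the GW4064 library and 0.732 in the vehicle library, and those of the D and Q block 0.452 and 0.551, and their part in the insulation values was not tested.

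Beyond the members, contacts with the flank of higher coordinates were few for the distance at the K, class II, D and Q and T blocks. With bins up to 2 Mb before the K block, the 31 member bins had 0.462 (0.422 to 0.504) of the expected contacts in the GW4064 library and 0.683 (0.627 to 0.744) in the vehicle library. With total contacts in the expectation these were 1.05 and 1.03. With bins up to 2 Mb after the M block they had 0.490 and 0.504, and 0.369 and 0.404 with total contacts. Class II bins had 4 contacts with the flank after the M block in the GW4064 library and 5 in the vehicle library, 0.0539 and 0.0850 of expected. They had 195 and 215 contacts with the flank before the K block in the same order, 0.455 and 0.699 of expected. T block bins had 10 and 11 contacts with the flank after the M block, 0.105 and 0.153 of expected. With the flank before the K block they had 43 and 31, 0.627 and 0.590 of expected. The M block had 0.427 in the GW4064 library and 0.420 in the vehicle library with the flank before the K block, over 2350 to 5500 kb. The flanks had 0.123 of the expected contacts with each other in the GW4064 library and 0.116 in the vehicle library.

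Genes of antigen presentation outside the H2 symbols were compared by the same local ratio over all bins of each gene. Of a list of 36 genes, 35 were found in the table of protein-coding loci and tested. In the GW4064 library 18 of the 35 were lower, against 32.0% of 20507 protein-coding loci, and 0 were higher, against 1.48%. Outside the H2 region 16 of 31 were lower. Psme1 and Psme2, both called lower, share a bin and so have the same counts. The median log2 ratio was -0.35, and -0.17 over all loci. Genes of peptide supply and loading had 8 of 13 lower. Among them Tapbp, which encodes tapasin and lies just before the K block, held 99 contacts in the GW4064 library and 149 in the vehicle library, a log2 ratio of -1.10 (-1.48 to -0.72). Tap1, a subunit of the peptide transporter, and Psmb9, an immunoproteasome subunit, lie in the bin of H2-DMb1 and have its ratio. Tap2, the other transporter subunit, lies in the bin of H2-Ob and has that of H2-Ob. Regulators had 5 of 11 lower. Nlrc5, the activator of class I genes, had -0.36 (-0.55 to -0.18). Ciita, the activator of class II genes, had -0.29 (-0.52 to -0.06), under the fold needed for a call. Rfxank and Rfx5, subunits of the RFX complex of class II promoters, had -0.79 and -0.63, and their partner Rfxap had 0.08 (-0.20 to 0.36). B2m, the light chain of class I, held 466 contacts in the GW4064 library and 353 in the vehicle library, with -0.11 (-0.31 to 0.10). Class I-like genes had 3 of 7 lower, with Fcgrt, the neonatal Fc receptor, at -0.85 (-1.11 to -0.61) and Mill1 at 0.17 (-0.08 to 0.42). Ifi30, a thiol reductase for class II peptides, held 124 contacts in the GW4064 library and 174 in the vehicle library, with an interval of the log2 ratio of -1.34 to -0.66. Only the 4 genes Tap1, Tap2, Psmb8 and Psmb9 lie between the first and last member bin.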

How the data were processed

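Foxa2 HiChIP contacts were analysed from 1 GW4064 and 1 vehicle library. The deposited matrices hold raw counts of contacts per pair of 50 kb bins, upper triangle with diagonal. The deposited bin tables give each bin's number, an index. Per the submitters' processing notes, the tools were HiC-Pro and Bowtie2 2.2.9 and the build mm10. Filters on mapping quality and duplicates are not stated there.

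Chromosomes 1 to 19 and X were used. Library totals of each contact class scaled the ratios, which have exact conditional binomial intervals. Observed over expected values have exact Poisson intervals, and shares have exact Clopper-Pearson intervals. The RefSeq gene table gives no strand, so a gene is every bin that it overlaps. The genes, blocks, lists and thresholds were chosen with earlier results of these data known, and the motif letters after the promoters had been read. Named are the classical class I and II genes, H2-O, H2-DM, H2-M3, the extreme bins of each block, and the extreme bin pairs, with others marked as chosen after the data were seen. Other fold thresholds, scalings, windows, minimum counts, expectations and bin sets were tried. The ratios were tested on simulated data, made by splitting the pooled local contacts at random at the depths of the libraries. Such data hold counting error only, so variation between libraries was not tested. Software was scipy 1.17.1, pandas 2.3.3 and numpy 2.4.6 under Python 3.11.15, with matplotlib 3.10.9 for figures.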

Additional observations from a re-analysis of the deposited data

How the results depend on the processing

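Of 161 alternative values, 116 stayed within the counting interval or within 1.5 times the count, 29 moved and 16 turned. Some of the 116 used the same bins as the main value and could not differ from it. For the K, class II, D and Q and T blocks these were every bin from the first to the last gene. For the T and M blocks they were the sets without thinly covered bins. The tally is therefore not a measure of stability. A value within an interval that includes 0 could still change sign. Local contacts of the T block did so, from -0.05 to 0.10 when scaled to all contacts. No paired analysis was possible because each group had 1 library, and leaving out a library was not possible either. At 1.5-fold, 2 member bins were lower, against 3.19% of all bins. At that threshold 8 antigen presentation loci were lower, for which no share over all loci was counted. Scaling to all contacts gave 6 member bins lower and 1 higher, against 5.42% and 22.8% of all bins, and 13 such loci lower and 1 higher, against 18.3% and 8.46% of all loci. It moved the log2 ratio of local contacts to 0.11 for the M block, -0.0046 for class I and -0.40 for class III. It moved contacts with other chromosomes to -0.79 for the K block, -0.51 for class II, -0.35 for D and Q, -0.51 for T and -0.18 for M, and contacts inside single bins of M to 0.16.

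With total contacts in the expectation, observed over expected values inside blocks were 2.53 in GW4064 and 1.96 in vehicle for class II, 1.98 and 1.55 for D and Q, 1.87 and 1.33 for T, and 0.965 and 0.906 for M. The log2 ratios were then 0.37 for class II, 0.35 for D and Q and 0.49 for T. Class II with K, D and Q had 2.26 in GW4064 and 1.53 in vehicle, with a log2 ratio of 0.56, and class II with T and M had 0.600 in GW4064. Without thinly covered bins, the D and Q block had 0.761 in GW4064 and 1.32 in vehicle, with a log2 ratio of -0.79. Class II with K, D and Q then had 0.982 in GW4064 and a log2 ratio of 0.57 (-1.66 to 3.19), and class II with T and M had 0.502 in GW4064. The K block gives no value without those bins. With every bin from the first to the last gene, the M block had 1.03 in GW4064 and 0.987 in vehicle. An expectation from all chromosomes gave 0.443 for the flank after the M block in GW4064 and 0.625 for the flank before the K block in vehicle.

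With at least 10 contacts, 34 bin pairs were lower and 21 higher, and at 1.5-fold 23 were lower and 13 higher. The shares over all pairs of the genome were not counted at these settings, so these numbers have no background. At 0.25 of the chromosome median, 0 member bins were thinly covered in GW4064 and 0 in vehicle. The shares of usable chromosome 17 bins were then 0.435% and 0.272%. By contacts inside single bins at 0.5 of the median, 8 member bins were so in GW4064, against 7.89%, and 4 in vehicle, against 3.81%. Member bins held 103 to 285 local contacts in GW4064 and 86 to 200 in vehicle, which sets the width of the intervals, and differences within them were not detectable at this depth. Apart from values that follow from fewer bins or from the scaling itself, the cause of these shifts was not tested.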

Other observations

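Distant partners of the blocks, examined after the data were seen, differed between the K to D and Q side, the T block and the M block. Of contacts over 1 Mb away on chromosome 17, the share that joined bins of positive compartment value was 77.2% in the GW4064 library and 83.3% in the vehicle library for the K block, and 76.8% and 77.7% for the class II block. It was 73.7% and 79.9% for the D and Q block, 51.6% and 51.9% for the T block, and 22.4% and 25.1% for the M block. Over all bins of the chromosome it was 15.9% in the GW4064 library and 19.8% in the vehicle library. The compartment value was computed from chromosome 17 contacts of the same libraries. These shares on the chromosome therefore largely restate it and are not a separate finding. Of contacts with other chromosomes, the K block had 69.3% (63.5% to 74.6%) with bins of the gene-dense upper tercile in the GW4064 library and 61.5% (56.4% to 66.4%) in the vehicle library. The M block had 30.0% (28.6% to 31.4%) in the GW4064 library and 35.8% (34.2% to 37.4%) in the vehicle library, and all bins 30.4% and 32.7%.

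Contacts inside single bins at marker genes were set against the genome median, as these libraries hold no RNA. The median of 7 hepatocyte genes was 0.849 in the GW4064 library and 1.04 in the vehicle library, and that of 5 Kupffer cell genes 0.967 and 1.06. The median of 4 B cell genes was 0.793 in the GW4064 library and 0.867 in the vehicle library, and that of 4 T cell genes 0.995 and 1.02. The part of other cell types in the H2 contacts was not tested.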
